A study of Mus musculus with 45 samples.

Results

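The comparison described here asked what was different in the ileum when FADD was deleted from an intestinal epithelium that already lacked caspase-8 in mice without MLKL. The 5 FADD IEC-KO CASP8 IEC-KO Mlkl -/- mice, called triple mutants below, were set against the 5 CASP8 IEC-KO Mlkl -/- mice, called double mutants, so that 10 of the 45 arrays of the series were compared. Members were chosen by the genotype in the title. IEC-KO stands for deletion in intestinal epithelial cells, for which the labels do not name the Cre driver, and both groups carried CASP8 IEC-KO and Mlkl -/-. RNA came from pieces of whole ileum of single mice, given as 11 weeks old in the labels and kept on chow, so that a shift in cell numbers and a shift in RNA per cell cannot be told apart. A further 2 groups of 5, FADD IEC-KO and Fadd fl/fl (floxed alleles, not deleted), were used to set the same deletion on another background beside it. The library labelled FADD IEC-KO replicate 1 had a Fadd level near that of the floxed mice, and results that rest on it are given with and without it. Values are log2 expression, in which a difference of 1 is a change of 2-fold.

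FADD is the adaptor that joins death receptors such as TNFR1 and Fas to caspase-8. The FADD and caspase-8 complex starts apoptosis and also holds back RIPK3, the kinase that activates MLKL, which ruptures the plasma membrane in necroptosis. In the mouse intestine, loss of either protein from the epithelium is known for Paneth cell death and inflammation of the ileum. By their titles both groups lack caspase-8 in the epithelium and MLKL, so that neither route would be intact. On that reading the triple against the double mutant compares FADD loss without them. Mlkl RNA also differed between the groups, as given below.

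Triple mutants had higher levels of 6 of 10 evening genes of the circadian clock and of 4 of 22 sugar and peptide genes, all transporters. They had lower levels of 13 of 30 type I interferon genes, and no Paneth cell gene was called lower. Of all genes 2.04% rose and 1.07% fell. With the title numbers described below as a covariate these counts were 4, 2 and 4. The transporter calls did not hold with the clock index described below. Of 19494 genes, 605 (3.1%) passed an adjusted p under 0.05 in limma's fit of all 45 arrays, 397 (2.04%) higher and 208 (1.07%) lower in triple mutants. The changes were mostly small: 12 genes (0.0616%) were at least 2-fold higher and 14 (0.0718%) at least 2-fold lower, and the median over all genes was 0.02 on the log2 scale. All 5 triple mutants lay above all 5 double mutants in 898 genes (4.61%) and below them in 453 (2.32%), together 1351 genes (6.93%). Higher calls made up 65.6% of the calls in this fit, 49.1% after quantile normalization and 55.5% after each array was centred on its median. All 605 calls kept their sign under both scalings.

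The title numbers of the mice differed between the groups, and the labels do not say what these numbers mean. The triple mutants were numbered 200 or higher without exception. Of the double mutants 4 were numbered under 100, and replicate 5 carried the number 212. With this split as a covariate 164 genes (0.841%) were called, 97 of them higher (0.498%) and 67 lower (0.344%). Of the 164, 153 were among the 605, and all 605 kept their sign. With arrays numbered 200 and over alone, limma called 0 genes, with 1468 at an unadjusted p under 0.05. Double mutant replicate 5 lay on the same side of the triple mutants' mean as the double mutants' mean did in 605 of the 605 called genes and beyond all 5 triple mutants in 580, though that mouse took part in choosing those genes. Called rises had a median difference of 0.38 from that mouse and 0.44 from the other 4, and called falls of -0.44 and -0.44. Arrays within the triple mutants correlated at 0.987 to 0.992, within the double mutants at 0.99 to 0.992 and between the groups at 0.984 to 0.991, across genes.

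Fadd itself, the deleted gene, was lower in every triple mutant. It measured 6.10, 5.34, 6.52, 6.27 and 6.02 in triple mutants, against 7.80, 7.36, 7.36, 7.39 and 7.36 in double mutants. The groups did not overlap, and the difference was -1.40 ± 0.17 (SE; limma, adjusted p = 8.25e-06). This is the check of the title, since the genotype field of the triple mutants names CASP8 IEC-KO and Mlkl -/- alone. The source of the remaining signal was not tested.

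Mlkl, whose product carries out necroptosis, was also lower, although both groups were titled Mlkl -/-. It read 7.18, 6.94, 7.31, 6.94 and 7.32 in triple mutants, against 8.21, 8.59, 8.52, 8.18 and 8.66 in double mutants (difference -1.29 ± 0.19 SE, limma adjusted p = 1.54e-04). The double mutants' mean of 8.43 ± 0.22 lay near the 8.66 ± 0.35 of Fadd fl/fl mice and the 8.62 ± 0.21 of Casp8 fl/fl mice (SD, n = 5 each), whereas the triple mutants' 7.14 ± 0.19 was below both. The level of FADD IEC-KO Mlkl -/- mice was 8.05 ± 0.22. The labels do not say which part of Mlkl was deleted or whether the probes lie within it, so this level does not check the genotype.

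**Figure D1:**
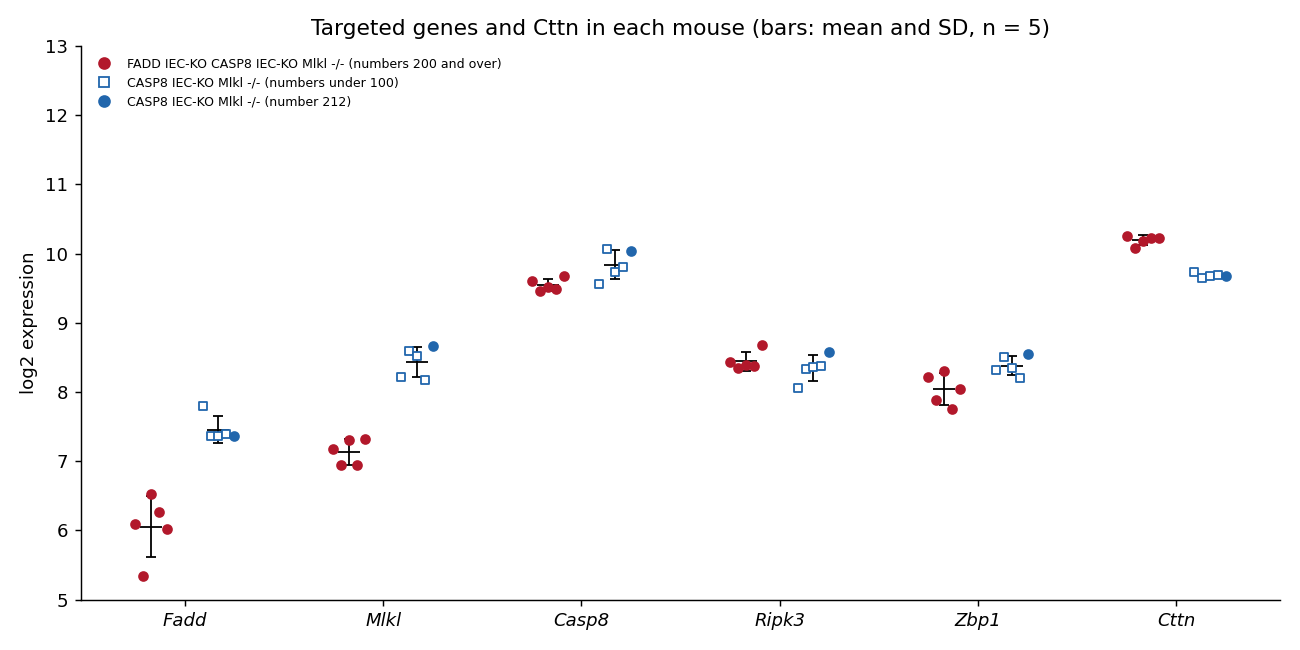
Log2 expression (vertical axis) of Fadd, Mlkl, Casp8, Ripk3, Zbp1 and Cttn in each of the 5 triple mutants (red, left) and 5 double mutants (blue, right; the filled blue circle is the mouse numbered 212), with mean and SD. The triple mutants lie below all double mutants for Fadd and Mlkl and above them for Cttn, and the groups overlap for Casp8, Ripk3 and Zbp1.

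The other necroptosis and death receptor genes showed few calls. Casp8 averaged 9.55 ± 0.09 in triple mutants and 9.84 ± 0.21 in double mutants (SD, n = 5 each; limma adjusted p = 0.29). Ripk3 (difference 0.10) and Zbp1, the nucleic acid sensor upstream of RIPK3 (difference -0.34), were not called. Of 22 measured genes of the death receptor and necroptosis list 1 rose and 2 fell, where 2.04% of all genes rose and 1.07% fell. The 2 that fell were Fadd and Mlkl, described above, and the list's median was -0.05. The riser was Tnfrsf1a, which encodes TNFR1: it measured 10.39, 10.30, 10.25, 10.29 and 10.28 in triple mutants, against 9.79, 10.00, 9.58, 9.97 and 10.04 in double mutants. That is a difference of 0.43 ± 0.09 (SE, limma adjusted p = 0.00608), in groups that did not overlap.

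Of 14 apoptosis genes, 2 rose and 0 fell, with a list median of 0.07, where 2.04% of all genes rose. Bcl2l1, which encodes the survival protein BCL-XL, measured 8.73, 8.72, 8.70, 8.67 and 8.47 in triple mutants and 8.12, 8.17, 8.05, 8.12 and 8.25 in double mutants. Its rise of 0.52 ± 0.10 (SE, limma adjusted p = 0.00268) left the groups apart. Bak1, which encodes a mitochondrial pore-forming killer protein, differed by 0.39 (adjusted p = 0.0293). The calls of Tnfrsf1a and Bak1 were lost with the title numbers as a covariate, at log2 differences of the same sign.

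Beside the deleted gene, Cttn rose. Cttn encodes cortactin, an actin-binding protein, and lies 2 measured genes from Fadd in the gene order of assembly GRCm38.p6. It measured 10.26, 10.08, 10.18, 10.23 and 10.22 in triple mutants, against 9.74, 9.65, 9.68, 9.69 and 9.68 in double mutants. The groups were far apart for their spread, at 0.51 ± 0.07 (SE, limma adjusted p = 2.49e-05), and the call held with the title numbers as a covariate. It was the 1 called gene of 28 measured within 20 places of Fadd (3.57%), a share near the 3.1% of all genes called. Around Mlkl 3 of 40 rose (7.5%, where 2.04% of all genes rose), namely Fa2h (difference 1.10), Bcar1 (0.59) and Gabarapl2 (0.32). Of these, Bcar1 held with the title numbers as a covariate. Around Casp8 0 of 40 were called.

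Gene lists were described by how many members were called and by their median, beside the share of all genes called. The lists at the ends of the range were the evening genes of the circadian clock, at a median of 1.23, and the type I interferon list at -0.73.

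**Figure D2:**
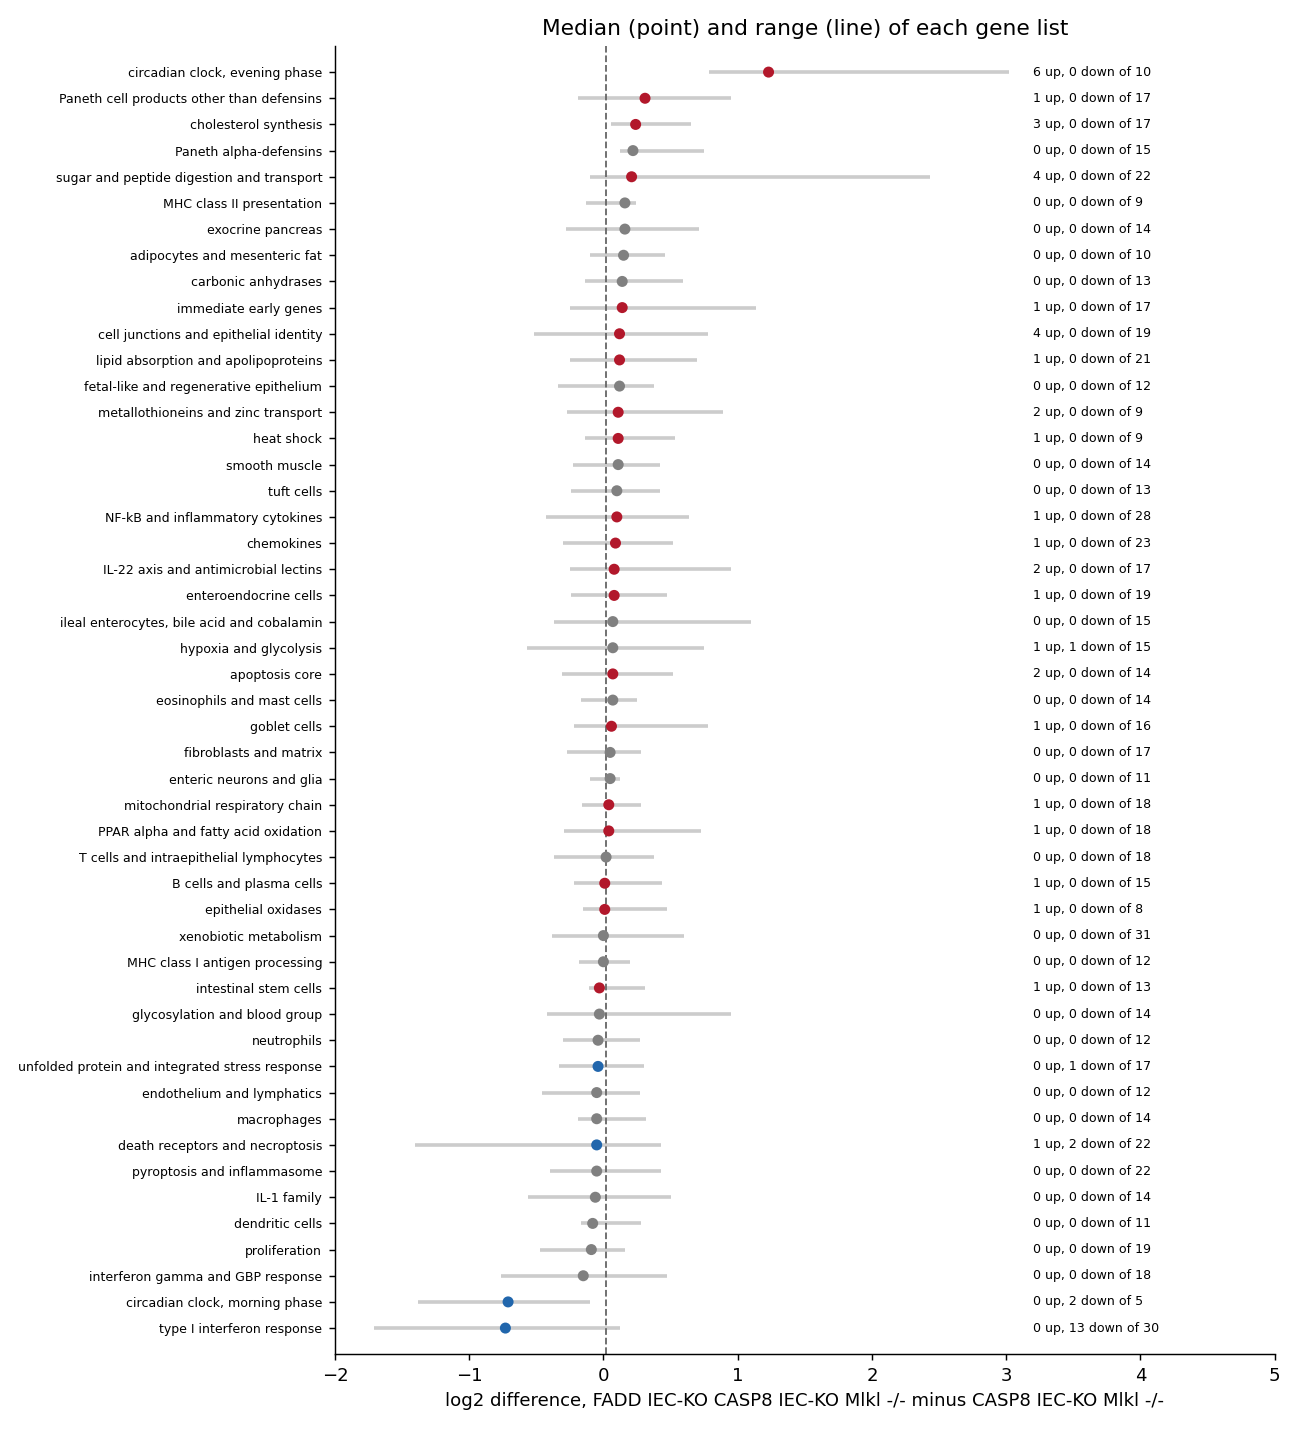
Median (point) and range (line) of the log2 difference, triple minus double mutants, for 49 gene lists on the vertical axis, with the number of called members written at the right; points are red where more members rose, blue where more fell and grey otherwise, and the dashed line is the median of all genes. The evening clock list lies furthest right and the type I interferon list furthest left.

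Interferon-stimulated genes were lower in triple mutants. These genes are switched on by type I and type III interferons and encode antiviral proteins. Of 30 measured members of the type I interferon list 13 fell and 0 rose, 29 lay below 0 and the median was -0.73, where 1.07% of all genes fell and the median of all genes was 0.02.

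Mx2, which encodes a GTPase that blocks viruses, fell most in the list. It measured 6.35, 6.73, 6.78, 6.43 and 7.22 in triple mutants, against 7.82, 8.87, 8.30, 7.96 and 9.12 in double mutants. Every triple mutant lay below every double mutant, by -1.71 ± 0.24 on average (SE, limma adjusted p = 5.51e-05; a 3.27-fold difference). Rsad2, which encodes viperin, measured 7.42, 7.35, 7.39, 7.48 and 7.54 in triple mutants, against 8.94, 9.41, 8.50, 8.57 and 9.30 in double mutants. The triple mutants were nearly alike for Rsad2 and the difference was -1.51 ± 0.25 (SE, limma adjusted p = 4.90e-04).

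Ifit3b, of the family that binds viral RNA, measured 8.18, 7.98, 8.41, 8.59 and 8.36 in triple mutants, against 9.61, 9.85, 9.04, 9.11 and 9.55 in double mutants (difference -1.13 ± 0.26 SE, limma adjusted p = 0.0102). Oas2, a synthetase of the messenger that activates RNase L, measured 7.45, 7.05, 7.88, 7.29 and 7.43 in triple mutants and 8.48, 8.61, 8.30, 8.21 and 8.71 in double mutants (difference -1.04 ± 0.20 SE, limma adjusted p = 0.0023). Neither gene overlapped between the groups. Dhx58, which encodes the RNA sensor LGP2, differed by -1.02 (adjusted p = 0.00361). The further list members that fell were Mx1, Ifit2, Ifit3, Isg15, Oas1a, Oas1g, Slfn5 and Xaf1, with differences between -1.01 and -0.72. Irf7 (0.12), Irf9 (-0.04) and Oasl1 (-0.02) lay near 0, and Usp18 (-1.07) and Trim30a (-1.09) differed by as much as called members without passing the test.

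Among the largest falls over all genes several more were interferon-inducible. Slfn4, a Schlafen family member, measured 7.72, 7.66, 8.08, 7.37 and 7.99 in triple mutants, against 9.27, 9.99, 9.26, 9.15 and 10.13 in double mutants. It had the largest fall of all genes, -1.79 ± 0.34 (SE, limma adjusted p = 0.00193; 3.46-fold). Phf11d measured between 6.97 and 7.60 in triple mutants and between 8.40 and 9.09 in double mutants, a difference of -1.45 ± 0.28 (SE, limma adjusted p = 0.00209). Ifi211, of the cluster of interferon-inducible DNA sensors, differed by -1.20 (adjusted p = 0.00625). Nlrp9b, an epithelial inflammasome sensor of viral RNA in mice that is not counted here as interferon-inducible, differed by -1.17 (adjusted p = 0.00108). Neither Ifi211 nor Nlrp9b overlapped between the groups, which was a condition for naming them here.

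Of the interferon gamma and guanylate-binding protein list 0 of 18 genes were called, with a median of -0.15. Of MHC class I antigen processing it was 0 of 12 (median 0.00) and of MHC class II 0 of 9 (median 0.16). Of all genes 3.1% were called, a share at which lists this short can hold 0 calls. B2m, the light chain of MHC class I, averaged 13.05 ± 0.05 in triple mutants and 13.01 ± 0.09 in double mutants (SD, n = 5 each). Whether the type I list differed from these lists was not tested.

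The mean level of the 30 genes ran from 7.93 to 8.28 in triple mutants and from 8.55 to 9.01 in double mutants, so that the ranges did not overlap. Both groups lay above the floxed mice, at 8.08 ± 0.13 in triple mutants, 8.78 ± 0.21 in double mutants and 6.98 ± 0.24 in Fadd fl/fl mice (SD, n = 5 each), and the Casp8 fl/fl mice ranged from 6.84 to 7.20. FADD IEC-KO Mlkl -/- mice averaged 8.13 ± 0.32. Double mutant replicate 5, the one numbered like the triple mutants, had the highest list mean of the 10 mice (9.01), and against it alone the list's median was -0.86. With the title numbers as a covariate 4 members were called (median -0.54), and with the clock index described below 5 (median -0.69). Without triple mutant replicate 5 the count was 8, without double mutant replicate 2 it was 6 and without double mutant replicate 5 it was 7.

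**Figure D3:**
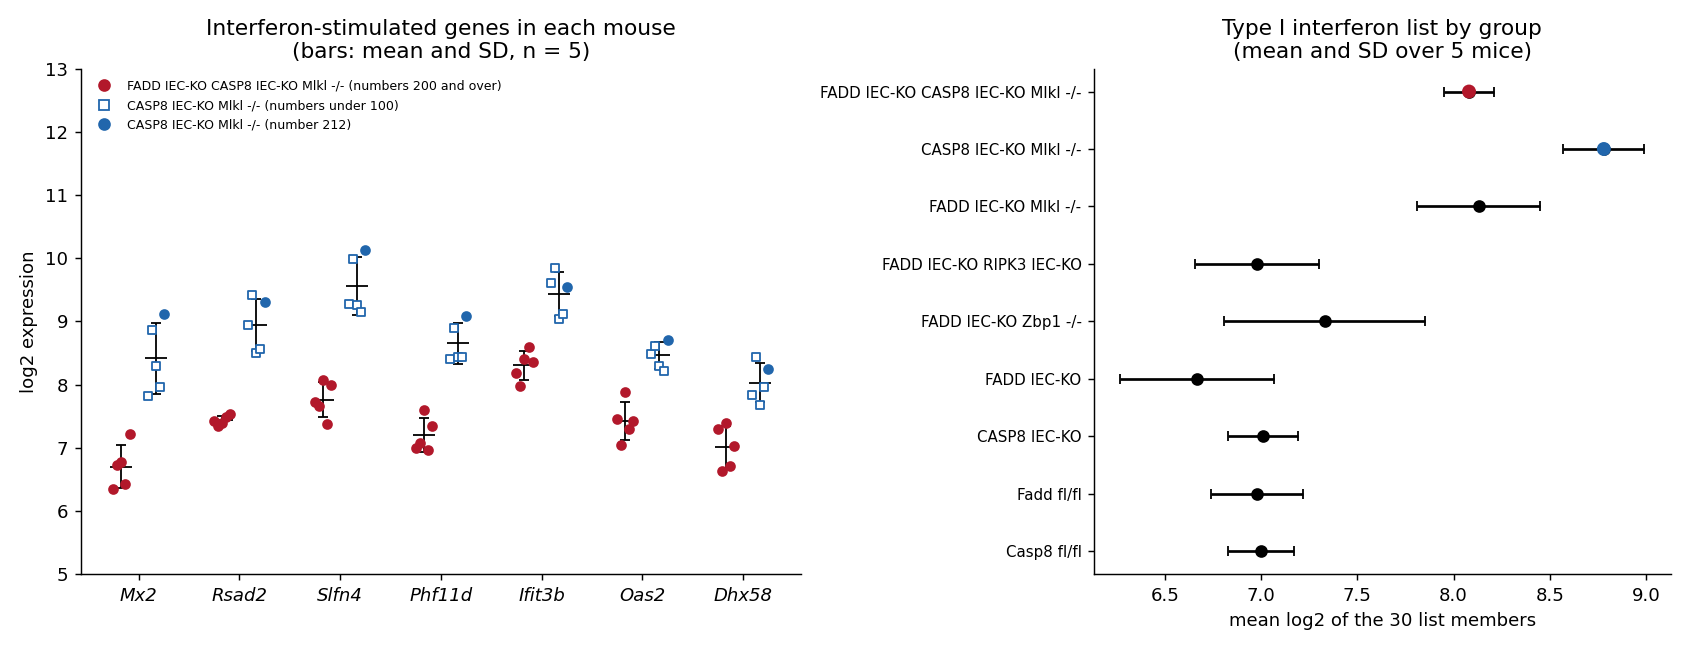
Left, log2 expression of 7 interferon-stimulated genes in each triple mutant (red) and double mutant (blue; filled circle, number 212), with mean and SD. Right, mean log2 expression of the 30 members of the type I interferon list in each of the 9 groups, with SD over 5 mice. The red points lie below all blue ones for each gene, which for Slfn4, Phf11d and Dhx58 was a condition of their choice. Both groups lie above the Fadd fl/fl mice at 6.98.

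The promoters of 2 of these genes, chosen for their matches, are shown because the letters of the interferon-stimulated response element, a motif known from such genes, can be read in them. Its core, GAAA, 2 letters of any kind and GAAA, was searched on both strands in RefSeq promoters of GRCm38.p6, from 250 bases before to 50 after each start. It was present in 618 of 15683 tested genes with a promoter in the table (3.94%), in 15 of the 22 type I interferon list members with one, and in 7 of the 9 that fell. The list was made of genes known to respond to interferon, so these shares describe the list. The promoters of Slfn4 and Phf11d held no match. The sequences run 5′ to 3′ on the gene's strand, with matches in capitals: Rsad2 from chr12:26456403-26456702, minus strand, has 1 match starting 120 bases before the start, and Ifit3b from chr19:34607707-34608006, plus strand, has 2 that do not overlap each other, starting 188 and 154 bases before it.
Rsad2: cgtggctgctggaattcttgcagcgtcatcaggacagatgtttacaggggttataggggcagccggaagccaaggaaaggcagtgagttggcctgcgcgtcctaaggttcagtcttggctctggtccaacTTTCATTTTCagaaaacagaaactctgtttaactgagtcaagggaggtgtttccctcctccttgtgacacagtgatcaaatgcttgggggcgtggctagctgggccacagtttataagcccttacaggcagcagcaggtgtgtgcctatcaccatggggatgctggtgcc
Ifit3b: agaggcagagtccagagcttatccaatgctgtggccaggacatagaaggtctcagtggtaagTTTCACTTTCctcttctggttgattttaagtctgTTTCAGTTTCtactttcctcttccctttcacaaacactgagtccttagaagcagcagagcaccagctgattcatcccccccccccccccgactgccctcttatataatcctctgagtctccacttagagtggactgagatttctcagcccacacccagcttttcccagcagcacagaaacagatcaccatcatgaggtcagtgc

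The evening genes of the circadian clock had the largest median difference of the lists described. In this clock the factors CLOCK and BMAL1 (encoded by Arntl) drive repressors and output genes, whose RNA is high in the mouse towards evening, while Arntl RNA is high in the morning. Of 10 measured evening genes 6 rose and 0 fell, with all 10 above 0 and a median of 1.23, where 2.04% of all genes rose. Of 5 morning genes 2 fell, where 1.07% of all genes fell, with all 5 below 0 and a median of -0.71.

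Dbp, an output transcription factor, had the largest rise of all genes. It measured 10.48, 10.60, 10.44, 9.69 and 10.34 in triple mutants, against 7.17, 7.08, 7.68, 8.05 and 6.48 in double mutants. The groups did not overlap and differed by 3.02 ± 0.67 (SE, limma adjusted p = 0.00715), which is 8.09-fold. Nr1d1, which encodes the repressor REV-ERB alpha, measured 10.31, 9.77, 10.02, 10.08 and 9.93 in triple mutants and 8.40, 7.32, 8.52, 8.49 and 6.67 in double mutants, a difference of 2.14 ± 0.34 (SE, limma adjusted p = 3.42e-04). For both genes the lowest of the 10 mice was double mutant replicate 5.

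Nr1d2, the second REV-ERB gene, differed by 1.65 (adjusted p = 0.00418), Ciart, a clock repressor, by 1.55 (adjusted p = 0.0274), Tef by 0.80 and Per1 by 0.80. Arntl moved the other way. It measured 8.07, 7.58, 8.09, 8.60 and 7.28 in triple mutants, against 9.32, 9.27, 9.41, 9.19 and 9.31 in double mutants (difference -1.38 ± 0.37 SE, limma adjusted p = 0.027), and Cry1, a repressor that peaks late, differed by -0.62. With the title numbers as a covariate the calls of Ciart, Per1, Arntl and Cry1 were lost and those of Dbp, Nr1d1, Nr1d2 and Tef held. The evening count stayed between 4 and 6 in every fit that left out 1 mouse, and the morning count was 0 without triple mutant replicate 2 or without double mutant replicate 2.

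A clock index, the mean of the morning list minus the mean of the evening list, ran between -0.32 and 0.83 in triple mutants and between 2.05 and 2.72 in double mutants. In Fadd fl/fl mice it ran from -0.67 to 2.10 and in Casp8 fl/fl mice from -0.25 to 2.09, so that mice of one genotype differed by about as much as the 2 mutant groups. The labels do not give the time of day of collection, and its part in the result was not tested. With the index as a covariate 285 genes (1.46%) were called, 166 of them among the 605. Since the index is made of the clock genes, that fit says nothing of these genes themselves.

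The promoter of Ciart is shown because it holds the E-box CACGTG, the site of CLOCK and BMAL1, more than once. This motif reads the same on both strands and was present in 1451 of the 15683 promoters (9.25%), in 4 of the 9 evening genes with a promoter and in 3 of the 6 that rose. Ciart was chosen for its matches, and the promoters of Dbp, Nr1d1 and Nr1d2 held none. Neither printed interferon promoter held an E-box, and 0 of the 9 evening promoters held the interferon motif. The Ciart promoter, chr3:95882179-95882478, minus strand, GRCm38.p6, RefSeq, has 3 matches that start 116, 58 and 44 bases before the start.
Ciart: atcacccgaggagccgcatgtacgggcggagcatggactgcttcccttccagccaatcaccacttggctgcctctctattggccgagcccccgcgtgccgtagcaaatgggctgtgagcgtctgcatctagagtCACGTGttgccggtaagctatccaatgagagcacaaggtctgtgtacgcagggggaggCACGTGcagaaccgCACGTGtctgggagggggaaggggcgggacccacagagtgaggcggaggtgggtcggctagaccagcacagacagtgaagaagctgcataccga

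Some nutrient transporters of the absorptive enterocyte were higher in triple mutants. Of 22 genes for sugar and peptide digestion and transport 4 rose and 0 fell, where 2.04% of all genes rose, 21 lay above 0 and the median was 0.21. The 4 were transporters. Other transporters of the list were not called, among them the peptide transporter Slc15a1 (0.49), the nucleoside transporter Slc28a2 (0.30), and Slc7a9 (0.17) and Slc3a1 (0.10), the subunits of a cystine transporter. Brush border enzymes such as sucrase-isomaltase (Sis, 0.45), lactase (Lct, 0.11) and aminopeptidase N (Anpep, 0.01) were not called either.

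Slc2a5, the fructose transporter GLUT5, measured 9.20, 9.26, 9.58, 8.77 and 9.05 in triple mutants, against 6.98, 6.75, 6.80, 6.91 and 6.29 in double mutants. That was a wide gap of 2.43 ± 0.44 (SE, limma adjusted p = 0.00109), or 5.38-fold. Slc2a2, the glucose and fructose transporter GLUT2, measured 7.52, 7.77, 8.68, 7.24 and 7.07 in triple mutants and 5.49, 5.67, 5.47, 5.65 and 5.22 in double mutants (difference 2.16 ± 0.57 SE, limma adjusted p = 0.0249). The neutral amino acid transporter Slc6a19 (0.64, adjusted p = 0.0251) and the sodium-glucose transporter Slc5a1 (0.45, adjusted p = 0.0257) also rose, and none of the 4 overlapped between groups.

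Outside the list, Slc6a8, the creatine transporter, measured 12.52, 12.48, 12.34, 12.49 and 12.60 in triple mutants, against 12.02, 11.17, 11.03, 11.05 and 11.28 in double mutants (difference 1.18 ± 0.18 SE, limma adjusted p = 1.85e-04). Double mutant replicate 1 stood apart from the other 4 there. The Slc6a8 call held with the title numbers and with the clock index as covariates. The 4 list calls did not hold with the clock index, where the list's median was -0.08 and the Slc2a5 and Slc2a2 differences were 0.72 and 0.59. With the title numbers, 2 of the 4 were called. The count was 1 without triple mutant replicate 2 and without double mutant replicate 3, and 2 without triple mutant replicate 3 and without double mutant replicates 4 and 5.

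**Figure D4:**
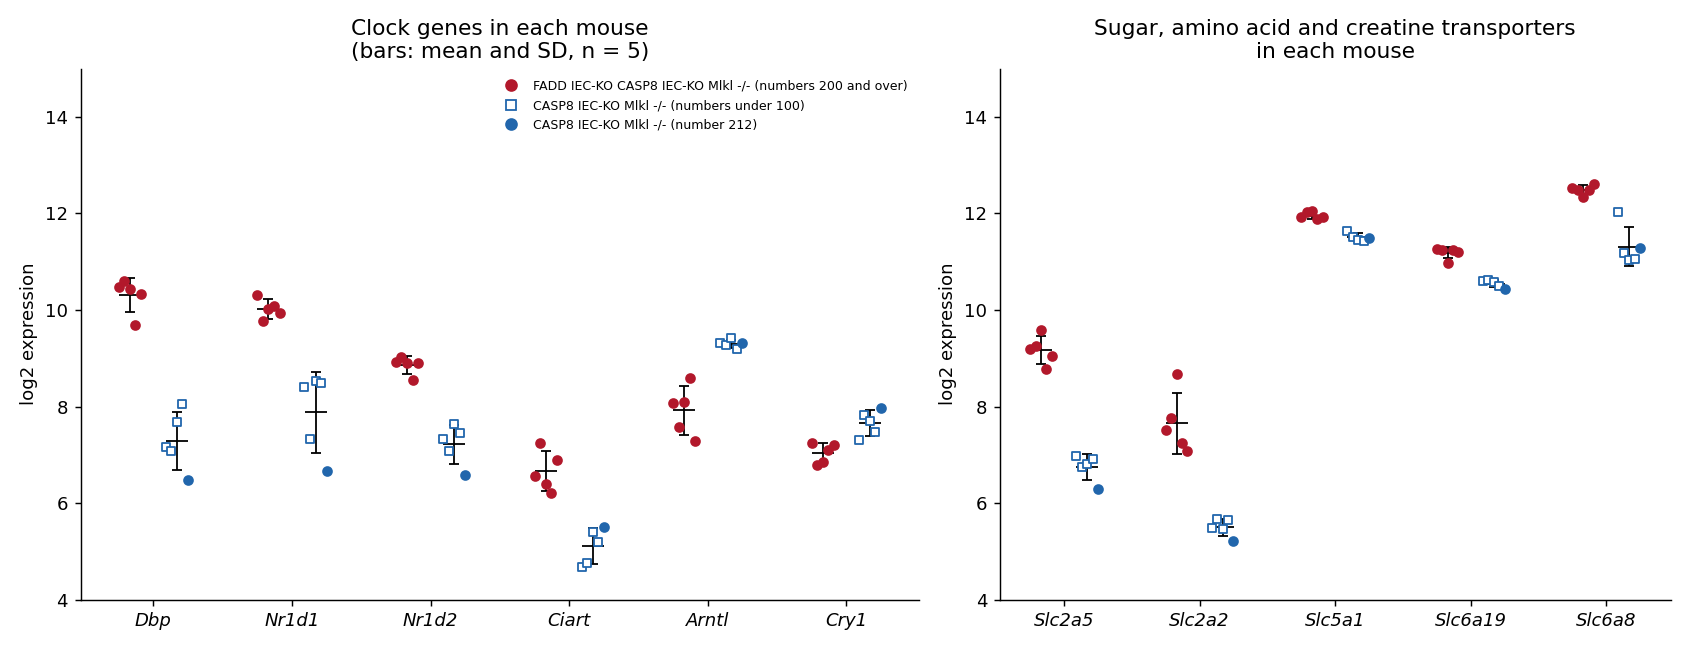
Log2 expression of 6 clock genes (left) and 5 transporter genes (right) in each triple mutant (red) and double mutant (blue; filled circle, number 212), with mean and SD, n = 5. The groups do not overlap for any of the 11 genes, with triple mutants higher except for Arntl and Cry1. For Slc6a8 the absence of overlap was a condition of its choice.

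Cholesterol synthesis genes lay above 0 in 17 of 17 measured members, with 3 called higher, where 2.04% of all genes rose, and a median of 0.24. That median was 0.05 against double mutant replicate 5 alone, with arrays numbered 200 and over, and 0.11 with the clock index as a covariate. Mvd, an enzyme of the mevalonate pathway, measured 8.10, 8.50, 8.03, 8.52 and 9.10 in triple mutants, all above the highest double mutant, and averaged 7.80 ± 0.24 in double mutants (SD, n = 5; difference 0.65 ± 0.15 SE, limma adjusted p = 0.00906). Insig1, which holds the SREBP factors in the endoplasmic reticulum, differed by 0.61 and Srebf2, which encodes the pathway's main activator, by 0.30. None of the 3 was called with the title numbers as a covariate, and 1 was without triple mutant replicate 5 or double mutant replicate 3. The list's mean was 9.27, 9.46, 9.19, 9.46 and 9.72 in triple mutants and 9.03, 9.24, 9.02, 9.11 and 9.30 in double mutants, with overlap.

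Other absorptive and metabolic genes were called singly, where 2.04% of all genes rose. Slc27a4, a fatty acid transport protein (0.57, adjusted p = 0.00773), Acaa1b, a peroxisomal thiolase (0.51, adjusted p = 0.00546), and Slc39a5, a zinc transporter (0.65, adjusted p = 0.00161), rose. Each was the only called member of its list, except that Mt2, a metallothionein, rose with Slc39a5 (0.89, adjusted p = 0.0292). With the title numbers as a covariate Mt2 was lost and the others held. With the clock index Slc39a5 (0.55) was called, and Slc27a4 (0.20), Acaa1b (0.24) and Mt2 (0.59) were not. Of 15 ileal bile acid and cobalamin genes 0 were called, and Fabp6, the ileal bile acid binding protein that marks the segment, was at 12.55 ± 0.13 in triple mutants and 12.68 ± 0.05 in double mutants (SD, n = 5 each).

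Of 19 junction and epithelial identity genes 4 rose and 0 fell, where 2.04% of all genes rose, with a median of 0.12 and 6 members below 0. The 4 were Cldn4 (0.78) and Cldn3 (0.27), which encode tight junction claudins, Hnf4a (0.37), the enterocyte transcription factor, and Vil1 (0.27), a microvillus protein. Cldn4 measured 9.66, 9.71, 9.66, 9.65 and 10.08 in triple mutants, against 9.27, 9.02, 8.62, 8.97 and 8.99 in double mutants (limma adjusted p = 0.0277). Vil1 was the 1 of these called with the title numbers as a covariate. The count of 4 was 2 without triple mutant replicate 2, 4 or 5 or double mutant replicate 5, and 1 without double mutant replicate 2, 3 or 4. It was 2 under quantile normalization or median centring.

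Sox9, a transcription factor of crypt base and Paneth cells, averaged 8.57 ± 0.17 in triple mutants and 7.75 ± 0.19 in double mutants (SD, n = 5 each), without overlap (difference 0.82 ± 0.20 SE, limma adjusted p = 0.012). Creb3l1, a regulator of secretory capacity, differed by 0.78 (adjusted p = 0.00622). Each was the only called member of its list, at 1 of 17 Paneth products other than defensins and 1 of 16 goblet cell genes, where 2.04% of all genes rose. Pyy, a hormone of L cells (0.47), and Smoc2, a stem cell marker (0.31), were likewise the only calls among 19 enteroendocrine and 13 stem cell genes. Of 19 proliferation genes 0 were called, with a median of -0.09. All 4 single calls were lost with the title numbers as a covariate.

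Among the remaining large rises were Fos, an immediate early transcription factor, and Tns4, a focal adhesion protein. Fos measured 8.66, 9.28, 9.05, 9.04 and 9.61 in triple mutants, against 8.01, 8.40, 8.46, 7.49 and 7.60 in double mutants (difference 1.14 ± 0.23 SE, limma adjusted p = 0.00314). It was the 1 called member of 17 immediate early genes, where 2.04% of all genes rose. Tns4 measured 10.18, 10.32, 10.16, 10.07 and 10.15 in triple mutants and 9.23, 9.07, 8.77, 9.16 and 9.03 in double mutants (difference 1.12 ± 0.25 SE, limma adjusted p = 0.00736). Neither gene overlapped between the groups, which for Tns4 was a condition for naming it. Both calls held with the title numbers as a covariate. With the clock index as a covariate the Fos difference was 1.11 and called, and the Tns4 difference was 0.18 and not called. Hspb7, a small heat shock protein (1.10), Cyp2u1, a fatty acid hydroxylase (1.19), and Rasd2, a small GTPase (0.90), completed the 12 largest called rises among genes whose groups did not overlap. These 3 were lost with the title numbers as a covariate. They were also lost with the clock index, at differences of 0.96, -0.07 and 0.18.

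Inflammatory lists held few calls, to be read beside the 2.04% of all genes that rose. Of 28 NF-kB and cytokine genes 1 rose (Nfkb2, 0.33), and of 23 chemokine genes 1 rose (Cx3cl1, 0.43). Of 17 genes of the IL-22 axis 2 rose, Stat3 (0.47, adjusted p = 0.00555) and its feedback inhibitor Socs3 (0.58, adjusted p = 0.0192). The antimicrobial lectins Reg3b (-0.06) and Reg3g (0.05), which this axis controls, were not called. With the title numbers as a covariate, Socs3 was the 1 of these 4 calls that held. Of 22 pyroptosis genes and 14 genes of the IL-1 family 0 were called.

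Single calls in stress and metabolic lists were Bag3, a co-chaperone (0.53), Ddit3, the stress factor CHOP (-0.33), Cyc1, of respiratory complex III (0.28), and Cyba, an oxidase subunit (0.47). Of 15 hypoxia and glycolysis genes 1 rose, Egln3, an oxygen-sensing hydroxylase (0.75), and 1 fell, Vegfa, an angiogenic factor (-0.57). Of all genes 2.04% rose and 1.07% fell. None of these 6 calls held with the title numbers as a covariate.

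Markers of other cell types gave 0 calls in the lists for macrophages, dendritic cells, neutrophils, eosinophils and mast cells, T cells, fibroblasts, smooth muscle, endothelium, enteric neurons and glia, exocrine pancreas, fat, red blood cells and tuft cells. The list for B and plasma cells had 1 call of 15, Sdc1 (0.40), which epithelial cells also express, where 3.1% of all genes were called. The mean of 14 macrophage genes had a median of 7.15 in triple mutants and 7.12 in double mutants. The mean of 10 fat genes ran from 5.81 to 6.96 in triple mutants and from 5.62 to 6.70 in double mutants.

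No Paneth cell gene was called lower with FADD loss on this background. Of 15 measured alpha-defensins, the antimicrobial peptides of Paneth cells, 0 were called, all 15 lay above 0 and the median was 0.22. With the clock index as a covariate that median turned to -0.89, and the median of the other Paneth products was 0.06. The mean level of the 15 alpha-defensins was 11.65, 11.44, 11.54, 11.70 and 11.42 in triple mutants. In double mutants it was 11.33, 11.43, 10.97, 11.45 and 11.29, and in Casp8 fl/fl mice 11.51 ± 0.19 (SD, n = 5). Its SD was 0.12 in triple and 0.19 in double mutants but 1.78 in CASP8 IEC-KO mice. Those mice share the fit's estimate of spread, so a small difference could go uncalled. Several defensin probe sets share sequence: Defa3 and Defa17 had identical values, as had Defa20 and Defa32, so the 15 are not independent readings.

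The same deletion in mice with intact Casp8 and Mlkl alleles gave other calls. There Fadd measured 7.32, 5.96, 6.31, 6.45 and 6.21 in FADD IEC-KO mice, against 7.61, 7.56, 7.49, 7.46 and 7.53 in Fadd fl/fl mice. The library labelled FADD IEC-KO replicate 1 lay close to the floxed mice and apart from the other 4, and so goes against its label in the deleted gene. In FADD IEC-KO against Fadd fl/fl mice 727 genes (3.73%) were called, 353 (1.81%) higher and 374 (1.92%) lower, and 15 of 15 alpha-defensins fell, with a median of -2.51 (15 of 15 and -2.79 without replicate 1). The difference between the 2 effects was tested as an interaction, (triple minus double mutant) minus (FADD IEC-KO minus Fadd fl/fl), over 4 groups that share no array. It was called in 524 genes (2.69%), 354 (1.82%) with a positive and 170 (0.872%) with a negative value. Without FADD IEC-KO replicate 1 the 727 calls were 644 and the 524 were 447. Title numbers were split unevenly here too, at 51, 52, 53, 54 and 221 in FADD IEC-KO mice. In Fadd fl/fl mice they were 58, 59, 209, 220 and 228. With the title numbers as a covariate the 524 interaction calls were 143, and with the clock index 64.

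For the alpha-defensins the interaction was called and positive in 14 of 15, with a median of 2.67 and a range from 2.13 to 4.67. Without FADD IEC-KO replicate 1 it was called in 15 of 15, with a median of 2.95. Defa28 measured 8.24, 7.96, 8.34, 8.54 and 7.95 in triple mutants and 7.45, 7.75, 7.05, 7.55 and 7.46 in double mutants. On the other background it measured 5.57, 4.08, 4.90, 4.14 and 3.15 in FADD IEC-KO mice, against 8.09, 8.40, 8.50, 8.19 and 8.22 in Fadd fl/fl mice. The FADD IEC-KO mice stood below all others, and the interaction was 4.67 ± 0.68 (SE, limma adjusted p = 1.07e-04; 4.97 without FADD IEC-KO replicate 1). Of the 17 other Paneth products, 1 of which (Defa30) is also in the defensin list, 10 were called and positive, among them Lyz1, which encodes lysozyme (2.59), and the angiogenin Ang4 (4.35), and 10 were called without FADD IEC-KO replicate 1.

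Mptx1, a mucosal pentraxin of Paneth cells, had the largest interaction. It measured 10.27, 9.92, 9.84, 10.84 and 10.37 in triple mutants and 9.41, 9.36, 7.84, 10.39 and 9.50 in double mutants. In FADD IEC-KO mice it measured 7.52, 5.22, 5.94, 6.65 and 4.79, against 6.97, 11.17, 11.43, 11.13 and 10.66 in Fadd fl/fl mice, of which replicate 1 was low. The interaction was 5.19 ± 1.04 (SE, limma adjusted p = 0.00405), and its relative Mptx2 had one of 4.41. These were 5.57 and 4.74 without FADD IEC-KO replicate 1.

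The defensin count of 14 was 7 with the title numbers and 1 with the clock index as a covariate. Leaving out triple mutant replicate 1, double mutant replicate 3 or FADD IEC-KO replicate 2 gave 9, and leaving out FADD IEC-KO replicate 5 gave 8. The count of 10 other Paneth products was 5 with the clock index.

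At the negative end stood Car1, a carbonic anhydrase (-3.81), Il1rn, the interleukin-1 receptor antagonist (-2.40), and Slfn4 (-2.24). Car1 measured 6.03, 5.31, 4.72, 5.41 and 5.39 in triple mutants and 5.55, 4.87, 5.02, 5.80 and 5.42 in double mutants. It measured 10.23, 10.61, 5.53, 8.26 and 11.52 in FADD IEC-KO mice, against 4.59, 5.72, 5.37, 5.99 and 5.22 in Fadd fl/fl mice, so that 4 of the 5 FADD IEC-KO mice stood far above the rest. Without FADD IEC-KO replicate 1 the interaction of Car1 was -3.56 and no longer called (limma adjusted p = 0.0515), while those of Il1rn (-2.49) and Slfn4 (-2.02) were called. Il1rn had 6.28, 6.85, 6.60, 6.15 and 7.04 in triple mutants, 5.74, 6.10, 6.26, 6.01 and 6.94 in double mutants, 7.90, 8.57, 8.71, 6.91 and 9.31 in FADD IEC-KO mice and 5.33, 5.66, 5.58, 5.63 and 5.33 in Fadd fl/fl mice.

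Some members of the interferon and clock lists had called interactions, where 1.82% of all genes were called positive and 0.872% negative. The median interaction was -0.38 over the 30 type I interferon genes and 1.44 over the 10 evening genes. Among the 30 type I interferon genes 2 were called, Mx2 (-1.38) and Rsad2 (-1.28), and the list's median in FADD IEC-KO against Fadd fl/fl mice was -0.30 with 2 members called lower (-0.45 with 4 when replicate 1 was left out). Among the 10 evening genes 4 were called, Dbp (3.46), Nr1d1 (2.24), Hlf (1.46) and Per1, and that list had a median of -0.14 with 0 called in FADD IEC-KO mice. Without FADD IEC-KO replicate 1 the interferon list had 1 interaction call, Mx2 (-1.22), and the evening list 5, no longer with Hlf (1.33). Dbp was widely spread on that background, at 10.27, 9.10, 8.54, 10.45 and 6.86 in FADD IEC-KO mice and 11.28, 9.49, 8.58, 7.68 and 10.43 in Fadd fl/fl mice. Fadd itself was lower on both backgrounds on average, with differences of -1.40 here and -1.08 in FADD IEC-KO mice, with an interaction of -0.32 ± 0.24 (SE, limma adjusted p = 0.547). The second difference was -1.30 and the interaction -0.10 without FADD IEC-KO replicate 1.

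**Figure D5:**
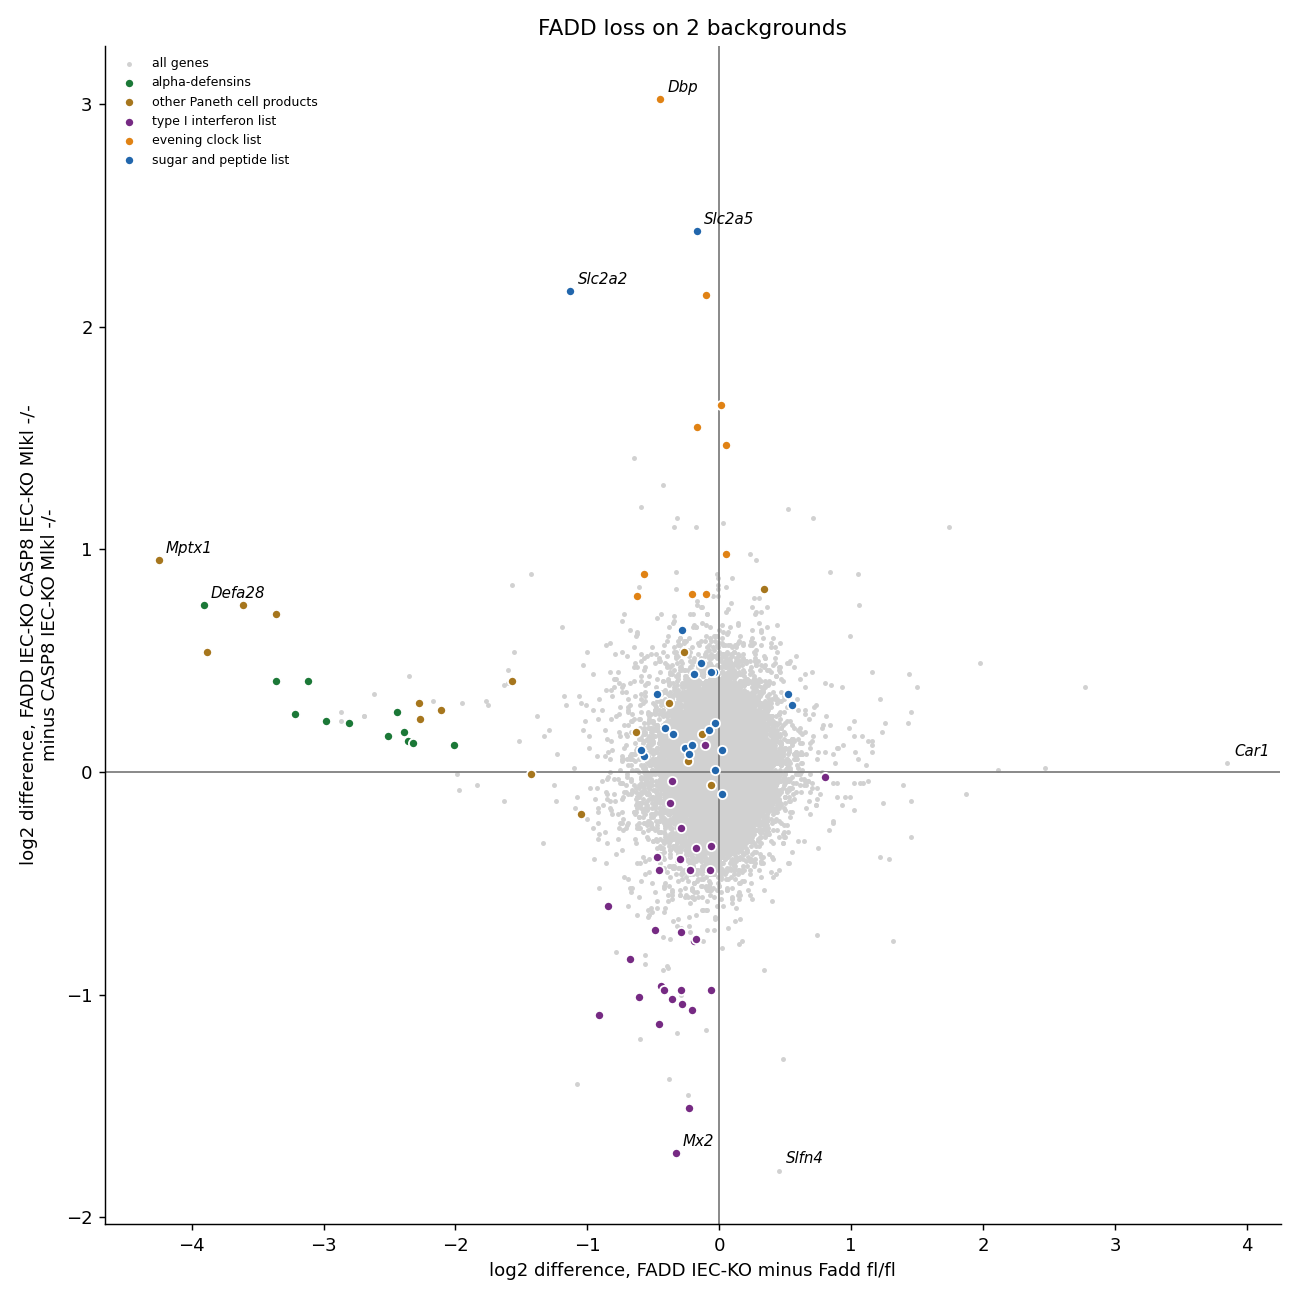
Each point is a gene: its log2 difference between FADD IEC-KO and Fadd fl/fl mice (horizontal) and between triple and double mutants (vertical), with 5 gene lists coloured. Alpha-defensins lie to the left at horizontal values of -2.01 and below and between 0.12 and 0.75 vertically, the evening clock genes lie above and the type I interferon genes mostly below the horizontal line.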

How the data were processed

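RNA from whole ileum was measured on 45 arrays, 5 per group in 9 groups, with target made from total RNA with a WT PLUS kit, per the labels' protocols. The deposited values are log2 intensities, normalized by the authors. The submitters' processing notes name Affymetrix Expression Console and Transcriptome Analysis Console; versions and summarization are not given in the sources used here. Array medians lay between 6.36 and 6.44. As with arrays in general, precision depends on their number.

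Of 22142 probes 19527 had 1 gene symbol and 2615 none. Names were matched by gene number to a gene table of GRCm38.p6, and for 33 genes with several probes the brightest on average was used, leaving 19494. A few older symbols of the lists were updated through that table, and list members without a probe were not used here. No dim probe was left out. limma 3.58.1 in R 4.3.3 fitted 1 mean per group to all 45 arrays (36 residual degrees of freedom), with eBayes and Benjamini-Hochberg adjustment over all genes of each of 3 contrasts. Calls are two-sided at an adjusted p under 0.05, and the script was tested on simulated data. Since the groups share 1 estimate of spread, p-values can be too small where the compared mice vary more than the rest. They can be too large where the compared mice vary less, so an uncalled gene is not shown to be unchanged. Defa28 (difference 0.75 ± 0.48 SE, limma adjusted p = 0.493) and H2-Ab1 (0.22 ± 0.36 SE, limma adjusted p = 0.848) were uncalled though their groups did not overlap. P-values measure the spread between mice, each of which gave 1 array.

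The members, gene lists and tests were chosen with earlier results of these data known. Named genes are the targeted genes, measured neighbours of Fadd and Mlkl, the called genes without overlap whose rise (12) or fall (12) was largest, up to 4 called members of each list (or its brightest member), and the 3 largest interactions each way. Genes outside this rule, such as Hlf, Tef, Per1, Irf7, Irf9, Oasl1, Usp18, Trim30a, Mx1, Ifit2, Sis, Lct, Anpep, Slc15a1, Slc28a2, Slc7a9, Slc3a1, Reg3b, Reg3g, Lyz1, Ang4, Bcar1 and Gabarapl2, were named after their values were seen. Alternatives covered the samples fitted, title numbers, normalization, dim genes, array weights, moderation, a Y-linked index, a clock index, probe averaging and each mouse left out in turn. Those for FADD loss alone and for the list counts were added after seeing the data.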

Additional observations from a re-analysis of the deposited data

Results flagged for a closer look

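In 212 sets of 5 mice (106 named genes in triple and in double mutants), 23 held a mouse whose gap to the nearest of the other 4 exceeded 0.71 of the set's range. Chance flags about 1 in 20 such sets. Triple mutant replicate 1 stood apart for Wdr59 (7.66, the nearest mouse 7.45) and Vil1 (11.85, the nearest mouse 11.78). Triple mutant replicate 3 stood apart for Fabp6 (12.78, the nearest mouse 12.51), Slc6a19 (10.98, the nearest mouse 11.20) and Ccr7 (6.10, the nearest mouse 6.32). Triple mutant replicate 4 stood apart for Dbp (9.69, the nearest mouse 10.34), Nr1d2 (8.55, the nearest mouse 8.91), Defa24 (12.46, the nearest mouse 12.36), Lyz2 (10.96, the nearest mouse 10.35) and Clps (9.63, the nearest mouse 8.68). Triple mutant replicate 5 stood apart for Ripk3 (8.68, the nearest mouse 8.43), Cyp2u1 (8.24, the nearest mouse 8.92), Bcl2l1 (8.47, the nearest mouse 8.67), Cldn4 (10.08, the nearest mouse 9.71) and Kit (8.19, the nearest mouse 8.62). Double mutant replicate 1 stood apart for Fadd (7.80, the nearest mouse 7.39) and Slc6a8 (12.02, the nearest mouse 11.28). Double mutant replicate 3 stood apart for Mptx2 (9.28, the nearest mouse 10.11), B2m (12.85, the nearest mouse 13.02) and Clps (6.95, the nearest mouse 8.23). Double mutant replicate 5 stood apart for Ppfia1 (7.22, the nearest mouse 6.94), Wdr59 (7.69, the nearest mouse 7.53) and Egln3 (8.98, the nearest mouse 8.41). 

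The effect of FADD loss without caspase-8 and MLKL differed from that in FADD IEC-KO against Fadd fl/fl mice in 524 genes by limma's test of the difference itself, and 28 of them are named here. Their values are the log2 difference between the effects. Named genes of the Paneth lists were positive: Mptx1 (5.19), Defa28 (4.67), Mptx2 (4.41), Defa24 (2.13), Clps (4.07). Lyz2 (2.48) was the 1 called gene of 14 in the macrophage list, whose values ran from -0.21 to 2.48. The Paneth product Lyz1 had a value of 2.59, and which cells gave the Lyz2 signal was not tested. Clock genes and other large rises were positive as well: Dbp (3.46), Nr1d1 (2.24), Cyp2u1 (1.77), Hspb7 (1.43), Rasd2 (1.24). Transport, metabolic and hormone genes were Slc2a5 (2.60), Slc2a2 (3.29), Pyy (1.10), Slc6a19 (0.92), Acaa1b (0.71), Slc39a5 (0.82). Further positive values were Cttn (0.37), Tnfrsf1a (0.46), Bcl2l1 (0.57), Smoc2 (0.49), Cldn3 (0.46). The negative values were Mlkl (-1.77), Slfn4 (-2.24), Mx2 (-1.38), Rsad2 (-1.28), Car1 (-3.81), Il1rn (-2.40). Clps is on both the Paneth and the pancreas list. Without FADD IEC-KO replicate 1, Car1 (-3.56) and Rsad2 (-1.18) were among those no longer called.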

How the results depend on the processing

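No paired analysis was possible because the titles share no numbers between the groups and replicates were numbered in accession order. The 605 calls of the triple against the double mutants became 164 with title numbers as a covariate, 0 with arrays numbered 200 and over alone (1468 at an unadjusted p under 0.05), 908 with dim genes left out, 1479 with array weights and 285 with the clock index, and ran from 317 to 635 with 1 mouse left out; without triple mutant replicates 1 and 5 there were 399 and 394, and without double mutant replicates 2, 3 and 4 there were 393, 317 and 396. The 2-group fit (778), both scalings (658 and 589), the intensity trend (696), the Y-linked index (629) and averaged probes (605) stayed within 1.5 times. The 524 interaction calls became 143, 829, 1080 and 64 with title numbers, dim genes left out, array weights and the clock index, and ran from 310 to 801 with 1 mouse left out: 310 without triple mutant replicate 1 or Fadd fl/fl replicate 5, 343, 321 and 801 without FADD IEC-KO replicates 2, 3 and 4, and 346 and 340 without double mutant replicates 3 and 5. The 727 calls of FADD loss alone became 153 in a fit of its 2 groups, 62 with arrays numbered 200 and over and 1091 with dim genes left out, and ran from 309 to 1090 with 1 mouse left out, being 474 and 391 without Fadd fl/fl replicates 4 and 5 and 351 and 309 without FADD IEC-KO replicates 2 and 3. With the clock index the differences of Ciart (-0.14), Cyp2u1 (-0.07) and Arntl (0.14) changed sign; Ciart and Arntl are members of that index, so that fit says nothing of them, and the alpha-defensin median turned to -0.89. The dim filter tests fewer genes and fits of fewer arrays have fewer samples; for the other settings the cause was not tested.

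Of 58 named calls 33 held with each mouse left out; the exceptions were Arntl, Bag3, Bak1, Ciart, Cldn3, Cldn4, Cry1, Cx3cl1, Cyba, Cyc1, Cyp2u1, Ddit3, Insig1, Mt2, Mvd, Nfkb2, Pyy, Rasd2, Slc2a2, Slc5a1, Slc6a19, Smoc2, Socs3, Vegfa and Vil1. With title numbers 24 held, with the clock index 27, and with arrays numbered 200 and over 0, where double mutants had 1 array. That lone array is assumed to vary like the other groups. The number of arrays, 5 mice per group, limits the precision.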
